A study of Mus musculus with 40 samples.

Results

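The comparison described here set 2 arrays made 24 hr after tetracycline (Tet) was added to mouse embryonic stem (ES) cells against 2 arrays made at 0 hr, on the larger of the study's oligonucleotide array designs (titles Oct4KO), called the early design here. These were 4 of the 40 arrays of the series, chosen by their labelled time. The spread was estimated over all 10 early arrays (0, 3, 6, 12 and 24 hr, 2 arrays each). Every culture was of the ZHBTc4 line in which both endogenous alleles of Pou5f1 are disrupted and a Tet-repressible Pou5f1 transgene maintains the cells. The 0 hr cells carried the same alleles and had received no Tet, and all cells were grown with LIF on gelatin without feeders. ZHBTc4 is 1 clonal line, the labels do not say whether replicates were separate cultures, and no culture was kept for 24 hr without Tet. Loss of Pou5f1 and 24 further hours in culture therefore cannot be told apart. Sample RNA was labelled with Cy3 and a common pool of mouse cell line RNA (Universal Mouse Reference) with Cy5, and dyes were not swapped. Median Cy3 signals of the 10 arrays were 594.7 to 672.1 and median Cy5 signals 559.5 to 661.1 in scanner units. With 2 arrays a time the p-values measure only the spread between these samples, which may be technical.

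POU5F1 (OCT4) is the POU-domain transcription factor that keeps ES cells and the inner cell mass pluripotent, often bound beside SOX2 at composite sites. When it is lost, ES cells are known to turn toward trophectoderm, the outer layer of the blastocyst that forms the placental trophoblast, where CDX2, GATA3, EOMES, TFAP2C and HAND1 act. LIF, acting through STAT3, and FGF, Nodal and BMP signals set the balance between self-renewal and differentiation in these cells.

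Pou5f1 itself had 2 probes, shown here because their changes differed in size. The first is on both the early and the smaller late design, and the second is on the early design alone. Neither is given a genome position in the files, and no base is capitalised because no part was singled out.
Probe on both designs: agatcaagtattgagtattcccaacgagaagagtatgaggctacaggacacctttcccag
Probe on the early design alone: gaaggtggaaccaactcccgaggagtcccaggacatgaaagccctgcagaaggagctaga

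With the probe on both designs, Pou5f1 had log2(Cy3/Cy5) values of 2.92 and 1.52 on the 0 hr arrays and -0.53 and -0.61 on the 24 hr arrays. The groups did not overlap, but the 0 hr arrays differed from each other by more than the 24 hr arrays did. The change was -2.79 (SE 0.34, n = 2 arrays each, limma adjusted p = 0.00125), and for Pou5f1 it was -2.09 without 0 hr replicate 1 and -3.49 without 0 hr replicate 2. The Cy3 signal alone, on a log2 scale, was 10.88 and 8.98 at 0 hr against 7.16 and 7.40 at 24 hr. Against 0 hr, its log ratio had already reached -1.83 by 3 hr, with -2.53 by 6 hr and -2.54 by 12 hr. The probe on the early design alone read 3.97 and 3.97 at 0 hr and 3.46 and 3.38 at 24 hr, a change of -0.55 (SE 0.15, limma adjusted p = 0.0285), short of the 1.5-fold threshold used here. Without 24 hr replicate 1 it passed that threshold (-0.60, limma adjusted p = 0.0499). In Cy3 alone that probe differed by -0.93 (limma adjusted p = 0.0333). Both probes read lower at 24 hr. Whether each of them reads the transgene, any transcript of the disrupted alleles or both was not settled. Neither change can therefore be taken alone as that of the transgene, and levels are not compared between probes. The study places its Pou5f1 array oligo in the coding region. It also followed the transgene by PCR with specific primers and the protein by western blot.

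**Figure D1:**
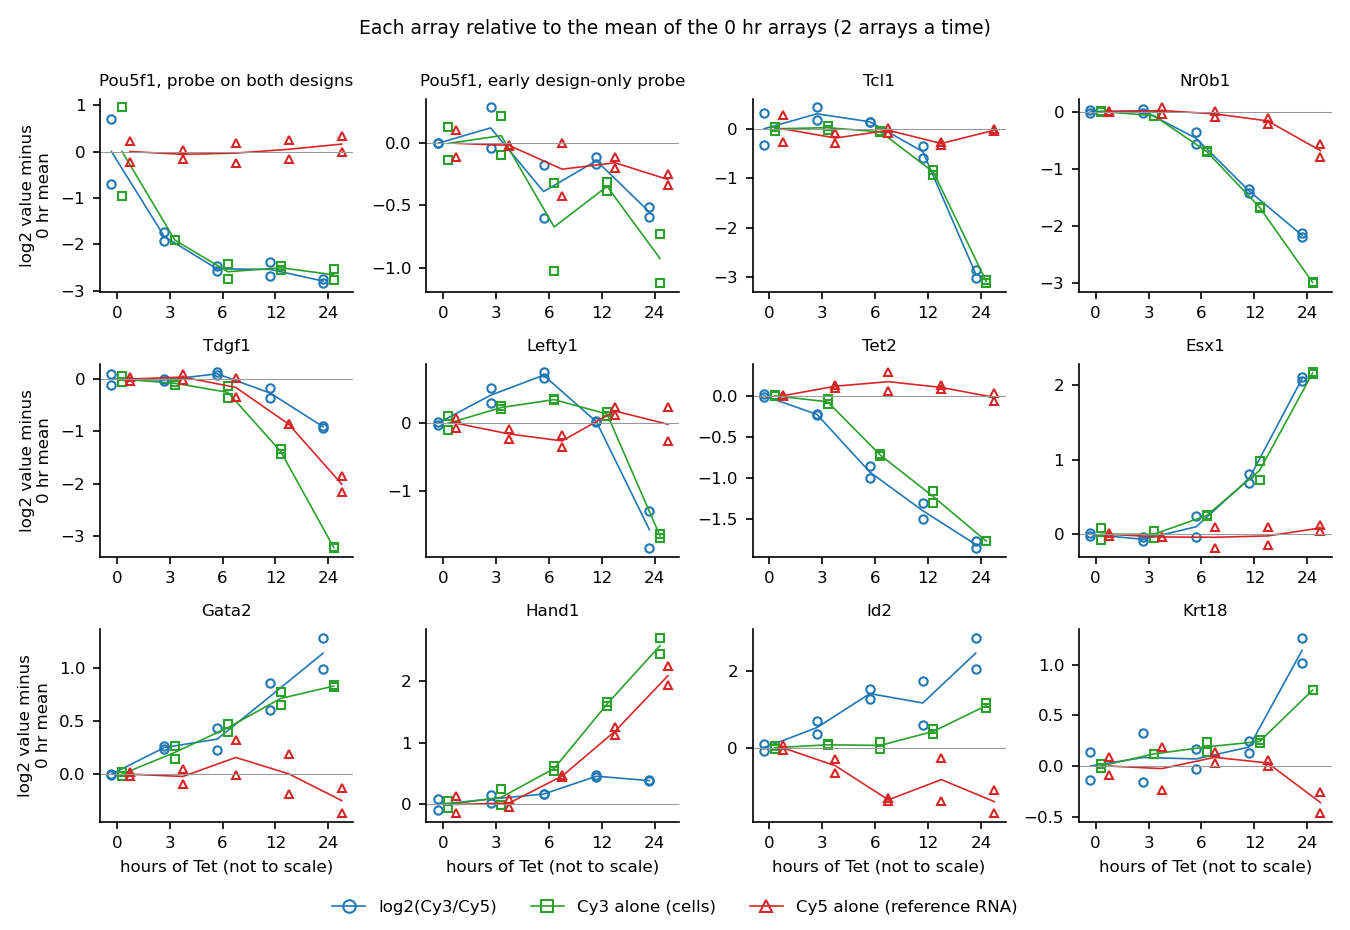
Values of 12 probes on each of the 10 early arrays, as log2 values minus the mean of the 0 hr arrays (y axis) against hours of Tet (x axis, evenly spaced); circles are log2(Cy3/Cy5), squares Cy3 alone, triangles the Cy5 reference alone, and lines join the means of 2 arrays. The Pou5f1 probe on both designs read -1.83 at 3 hr, Tcl1 still read 0.14 at 6 hr, and the Cy5 signal of Tdgf1 and Hand1 moved with Cy3.

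Both scales, the log ratio and Cy3 alone, were read throughout, because the Cy5 reference is the same RNA on every array and should read alike. On the log ratio, 748 of 39008 genes were called lower (1.92%) and 2698 higher (6.92%), 8.83% in all. A call needed a limma adjusted p up to 0.05 together with 1.5-fold or more, with each symbol counted once by its brightest probe and unnamed probes counted singly. With Cy3 alone the balance turned, to 1308 lower (3.35%) and 685 higher (1.76%), or 5.11% in all. With Cy5 alone, 10 genes were called (0.0256%), and 10258 had an unadjusted p under 0.05. The genes called higher on the log ratio had a median change of 0.86, of which the median in Cy3 was 0.25 and that in Cy5 was -0.60. The genes called lower had a median log ratio change of -0.79, with -0.72 in Cy3 and 0.18 in Cy5. The rises on the log ratio thus lay mostly in a lower reference signal and the falls mostly in the cells' own signal. Array 2 at 24 hr had the reference channel that correlated least with the other 9 (r of 0.958 to 0.979 across probes). The mean log10 Cy5 of the 100 most variable bright probes, which the study's methods use as an index of bleaching, was 0.24 and 0.25 above the mean of all arrays at 0 hr and 0.16 and 0.31 below it at 24 hr, so the index was lower at 24 hr than at 0 hr on every array. It also differed within a time, with 0.18 and -0.21 at 12 hr, and its part in the changes can be separated from time only in part.

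The total of rises on the log ratio moved more than that of falls when single arrays were left out. Of the 748 falls 508 were called without each of the 4 arrays in turn, and of the 2698 rises 513 were. Without 0 hr replicate 1, 699 genes were lower and 853 higher. Without 0 hr replicate 2 these counts were 687 and 767, and without 24 hr replicate 2 they were 755 and 1029. Without 24 hr replicate 1, 854 were lower and 3754 higher. In Cy3 alone, against 685 with all arrays, the rises numbered 1270 without 24 hr replicate 1 and 1295 without 24 hr replicate 2, and leaving out 1 array at a time kept the falls between 1150 and 1674.

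**Figure D2:**
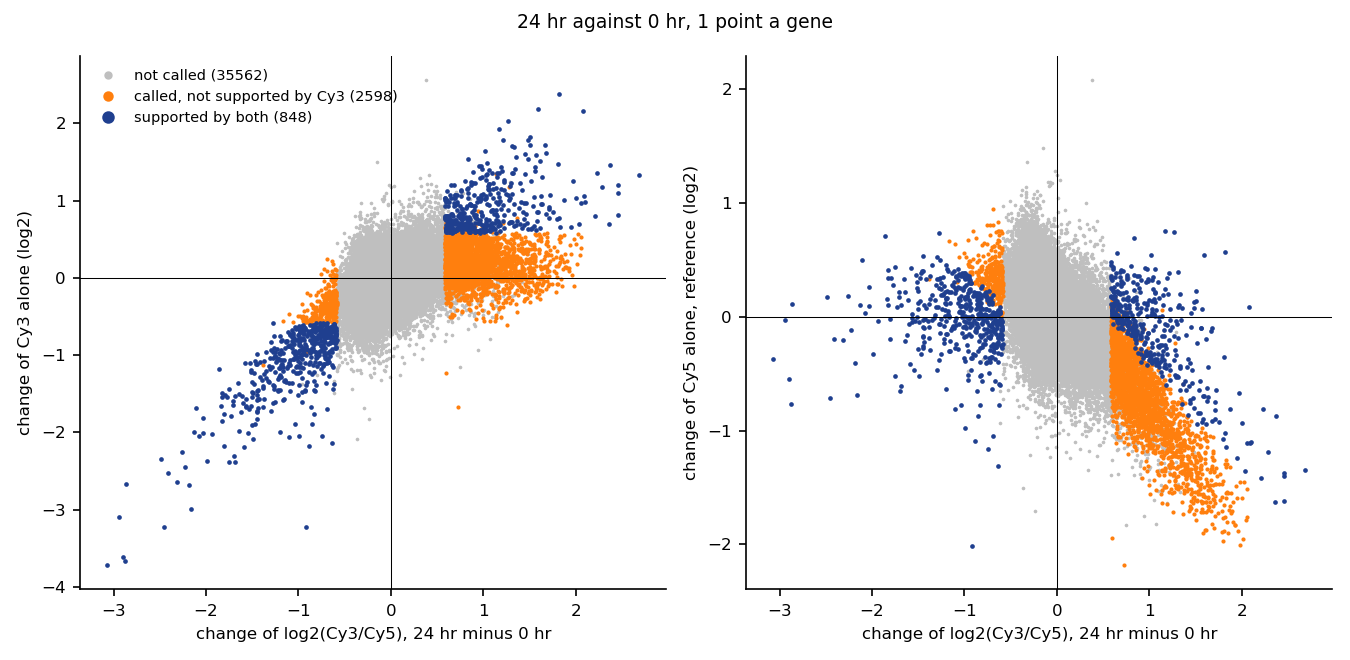
Change from 0 to 24 hr of each gene in Cy3 alone (left, y axis, log2) and in the Cy5 reference alone (right, y axis, log2) against its change in log2(Cy3/Cy5) (x axis). The 848 genes supported by both scales follow the diagonal on the left, while the 2598 other called genes are mostly rises that lie near 0 in Cy3 and well below 0 in Cy5. The 848 were defined by a Cy3 change of the same sign and at least 1.5-fold, so the split in Cy3 follows from that rule.

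A gene was taken as changed on both scales when it was called on the log ratio, its Cy3 signal changed the same way by at least 1.5-fold, and its 24 hr arrays lay apart from its 0 hr arrays on each scale. This left 456 falls (1.17% of genes) and 392 rises (1%), together 2.17%, that is 61% of the called falls and 14.5% of the called rises. Among the falls, 201 were at least 2-fold and 18 at least 4-fold on the log ratio. Among the rises these numbers were 179 and 15. Of the falls, 317 were also called without each of the 4 arrays in turn and after a correction of Cy5 bleaching, and of the rises 175 were. Counts of genes whose arrays merely did not overlap were large for any gene, since 2 arrays stood apart from 2 in 63.3% of genes on the log ratio and 50.3% in Cy3.

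On the log ratio, the largest falls among named genes changed on both scales were those of Slc7a3, Tcl1 and Jam2. Slc7a3, a cationic amino acid transporter, had log ratios of 2.77 and 2.85 at 0 hr and -0.49 and -0.02 at 24 hr, a fall of 8.4-fold (limma adjusted p = 1.01e-05). A second Slc7a3 probe fell as well, by 2.29 on the log2 scale. Tcl1, a coactivator of AKT kinase that supports ES cell growth, went from 3.43 and 4.09 to 0.74 and 0.91 (change -2.94, limma adjusted p = 4.72e-05). Jam2, a junctional adhesion molecule, went from 3.36 and 3.62 to 0.59 and 0.60, and its second probe read a change of only -0.32 on the log ratio and -0.79 in Cy3. This ranking took only genes whose 24 hr arrays lay apart from the 0 hr arrays on both scales. Their separation is therefore no further result.

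Among the falls that followed were transcription factors of pluripotent cells, though LOC669384, Lrrc2 and Dusp27, given below, fell by more on the log ratio. Zfp296, a zinc finger factor, had a log ratio of 2.83 and 2.91 at 0 hr and 0.74 and 0.48 at 24 hr (limma adjusted p = 1.5e-05). Nr0b1 (DAX1), an orphan nuclear receptor that interacts with OCT4, went from 3.91 and 3.97 to 1.81 and 1.74 and fell by 2.99 in Cy3 on the log2 scale. Other large falls were those of Hmces (-2.13 on the log ratio and -2.0 in Cy3), which binds modified and damaged DNA, the growth factor Vegfc (-2.11 on the log ratio and -1.69 in Cy3), the phosphatase-like Dusp27 (-2.31 on the log ratio and -2.63 in Cy3), Lrrc2 (-2.41 on the log ratio and -2.52 in Cy3), and the little described LOC669384 (-2.46 on the log ratio and -3.23 in Cy3) and BC032203 (-2.08 on the log ratio and -2.05 in Cy3). All 11 falls named from Slc7a3 to BC032203 were also called without each of the 4 arrays in turn and after the correction of Cy5 bleaching.

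**Figure D3:**
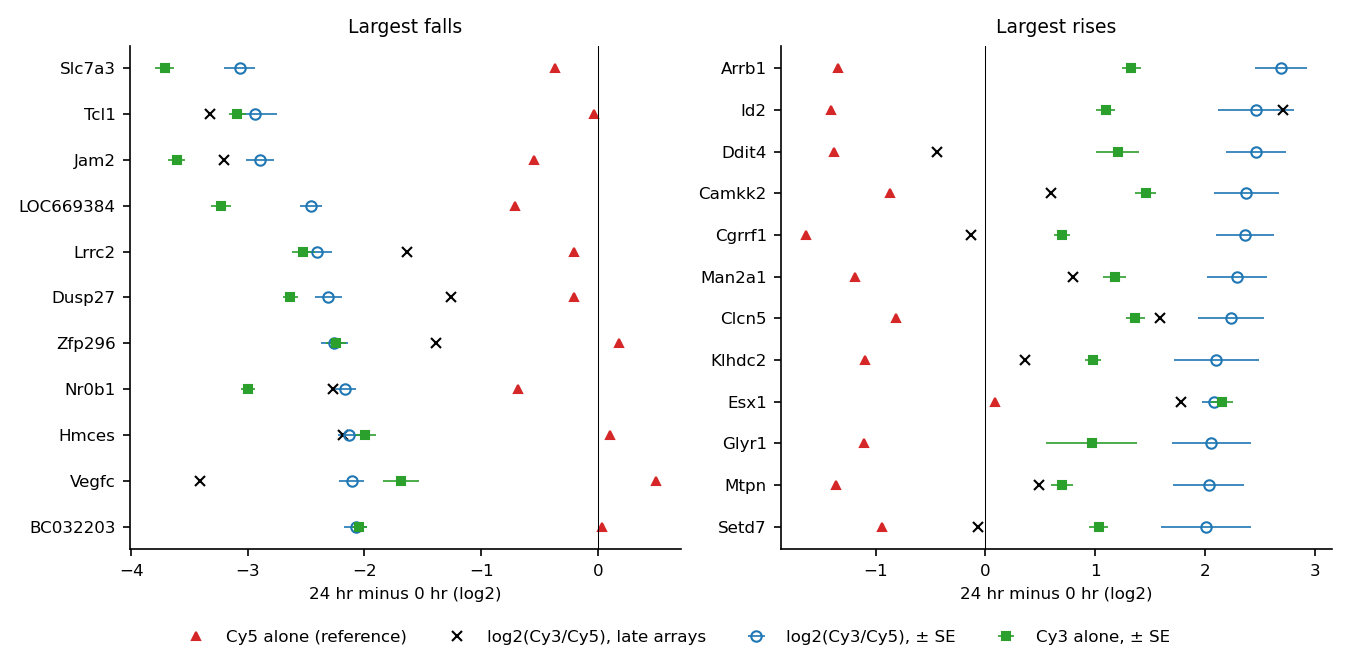
Change from 0 to 24 hr (x axis, log2) of 11 of the largest falls (left) and the 12 largest rises (right) on both scales, with circles for log2(Cy3/Cy5) and squares for Cy3 alone (each with its SE), triangles for the Cy5 reference and crosses for the late arrays where they hold the same probe. Circles and squares lie well below 0 for the falls. The square lies lower than the circle for some, such as Nr0b1 (-2.99 and -2.17, Cy5 -0.69), and higher for others, such as Vegfc (-1.69 and -2.11, Cy5 0.50). Of the 12 rises, 11 have a Cy5 triangle below -0.80 and Esx1 has one at 0.09.

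The list of naive pluripotency genes held 31 measured members, of which 15 were called lower and none higher on the log ratio, beside 4.16% lower and 9.2% higher among all 13917 genes with a symbol (13.4% for either). Of those symbols 1989 come from tables of the study, whose genes were chosen in part on these arrays, and 21.6% of them were called against 12% of the rest. In Cy3 alone 17 were called lower and none higher, beside 5.05% and 3.05% of all symbols (8.1% together). The median change of the list was -0.55 on the log ratio and -0.93 in Cy3, against -0.04 and 0.00 over all genes with a symbol. Of its members 13 fell on both scales, where the background was 2.56% for falls, 1.77% for rises and 4.33% for either. These shares of all symbols are the background for the lists that follow. Beside Tcl1 and Nr0b1 these included Foxd3, a forkhead factor needed for ES cell maintenance, whose log ratio went from 2.37 and 2.40 to 0.43 and 0.27 (limma adjusted p = 2.13e-05). Tdh, the threonine dehydrogenase that feeds one-carbon metabolism in mouse ES cells, went from 3.89 and 3.86 to 2.19 and 1.95 (limma adjusted p = 3.47e-05). The Kruppel-like factor Klf5 changed by -0.99 on the log ratio and -2.04 in Cy3, and the homeobox gene Gbx2 by -0.69 on the log ratio and -1.11 in Cy3. Klf2 (-0.73 on the log ratio and -1.23 in Cy3) lost its call without 0 hr replicate 1 (limma adjusted p = 0.0621). Utf1, a chromatin factor of pluripotent cells (-0.62 on the log ratio and -1.44 in Cy3), lost its call without 0 hr replicate 1, 0 hr replicate 2 or 24 hr replicate 2 (adjusted p of 0.0664, 0.061 and 0.0506 by limma). Klf4 was called on the log ratio (-0.63) with a Cy3 change of -0.46, and it was not called without 0 hr replicate 1, 0 hr replicate 2 or 24 hr replicate 2 (log ratio -0.54, -0.71 and -0.46).

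Some of the best known members of that list were not called on the log ratio. Pou5f1 was among them, as the list counted it by its brighter probe, on the early design alone (-0.55). The probe on both designs (-2.79) was not counted there. Nanog read 2.32 and 2.69 at 0 hr and 2.55 and 2.55 at 24 hr on the log ratio, and 12.93 and 12.73 against 12.98 and 12.87 in Cy3, so its arrays overlapped on both scales. Its change was 0.05 (SE 0.12, limma adjusted p = 0.778). Sox2 read 5.40 and 5.64 at 0 hr and 5.44 and 5.12 at 24 hr, a change of -0.24 (SE 0.14, limma adjusted p = 0.242), with -0.54 in Cy3. Esrrb differed by -0.35 on the log ratio and -0.20 in Cy3, under 1.5-fold. Zfp42 (REX1), a marker of naive cells, was not called on the log ratio (-0.07, limma adjusted p = 0.734) but fell in Cy3, from 15.97 and 15.97 to 14.78 and 14.78, beside a Cy5 difference of -1.23.

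This last pattern, a reference signal that moved with the cells' signal, recurred in other bright genes. Tdgf1 (CRIPTO), the Nodal co-receptor, had Cy3 values of 14.74 and 14.85 at 0 hr and 11.56 and 11.58 at 24 hr, a 9.34-fold fall. Its Cy5 signal went from 9.18 and 9.11 to 6.97 and 7.29, and its log ratio therefore changed by only -0.91 (limma adjusted p = 0.000788). Gdf3, a TGF-beta family ligand, differed by -2.05 in Cy3, -1.17 in Cy5 and -0.74 on the log ratio. In the other direction Hand1, a trophoblast transcription factor, went from 8.80 and 8.69 to 11.18 and 11.44 in Cy3, a 5.91-fold rise, beside a difference of 2.08 in Cy5 and of 0.38 on the log ratio, which was under 1.5-fold and not called. Of the 1308 genes called lower in Cy3 alone, 83% were lower in Cy5 too (median Cy5 change -0.35), against 30.2% of the 685 called higher (median 0.23) and 46.7% of all genes. Both channels are read from the same spots, and the part of spot quality or of light passing between channels was not tested.

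Signalling lists held calls in both directions. On the Nodal and activin list 4 of 21 measured genes were called lower and 1 higher, and all 5 changed in Cy3 too, where the list had 4 calls lower and 3 higher. Lefty1, a Nodal antagonist that Nodal itself induces, had log ratios of 2.73 and 2.77 at 0 hr and 0.91 and 1.45 at 24 hr (limma adjusted p = 0.000384), after values above 0 hr at 3 and 6 hr (changes of 0.41 and 0.71). Inhbb, a subunit of activin B, changed by -1.25 on the log ratio and -1.60 in Cy3. On the FGF and ERK list 3 of 27 were called lower and 3 higher, beside 4.16% and 9.2% of all symbols. Etv1, an ETS factor induced by ERK, went from 0.24 and 0.14 to -1.61 and -1.43 (limma adjusted p = 2.59e-05), and Rasgrp2, a guanine nucleotide exchange factor for RAP1, changed by -1.73 on the log ratio and -1.78 in Cy3. Dusp9, a phosphatase that dampens ERK, rose, from 1.63 and 1.65 to 2.75 and 3.06 (limma adjusted p = 0.000217) and by 4.09-fold in Cy3.

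Of 14 measured genes of LIF and STAT3 signalling 2 were called lower and none higher. Myc went from 0.06 and 0.19 to -1.86 and -1.56 (change -1.83, limma adjusted p = 4.1e-05), with -1.85 in Cy3. Socs2, an inhibitor of cytokine signalling, changed by -0.91 on the log ratio and -1.35 in Cy3 and was not called without 0 hr replicate 2 (limma adjusted p = 0.0739). Among 21 genes of BMP signalling and the Id family, Id3 went from -0.81 and -0.94 to -2.58 and -2.47 (limma adjusted p = 2.13e-05), while Id2 went from -1.95 and -2.14 to 0.01 and 0.82 (limma adjusted p = 0.00239). Id2 changed by 1.09 in Cy3 and by -1.40 in Cy5, so a part of its log ratio change lay in the reference. ID proteins bind E proteins and block their DNA binding, and Id2 is known to mark the trophectoderm. Id1 read -0.61 on the log ratio and -1.33 in Cy3, called in Cy3 alone. Bmp4 had opposite signs on the scales (1.07 on the log ratio and -0.80 in Cy3), and its log ratio was called only without 24 hr replicate 1 (1.48, limma adjusted p = 0.0228).

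Several chromatin regulators fell. Tet2, an enzyme that oxidises 5-methylcytosine, went from 1.93 and 1.97 to 0.19 and 0.10 on the log ratio and from 8.68 and 8.67 to 6.90 and 6.91 in Cy3 (limma adjusted p = 1.82e-05 for the log ratio). From 0 hr it read -0.23, -0.93 and -1.40 at 3, 6 and 12 hr. In Cy3 alone 3 of the 15 measured genes of DNA methylation were called lower and none higher. The 14 other than Tet2 gave 5 calls higher on the log ratio and none of them higher in Cy3. One of those, Dnmt3l, the cofactor of the de novo methyltransferases, read 0.73 on the log ratio but -1.66 in Cy3 and -2.18 in Cy5, and its call was lost without any one of the 4 arrays (limma adjusted p from 0.0643 to 0.198).

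A further group acts on histones. Of 12 histone demethylases 3 fell on both scales and none rose. Kdm5b, which removes H3K4 methylation, went from 2.44 and 2.44 to 1.40 and 1.41 (limma adjusted p = 0.000295). Kdm4c changed by -0.71 on the log ratio and -1.35 in Cy3 and was not called without 0 hr replicate 1 or 0 hr replicate 2 (adjusted p of 0.0515 and 0.0573 by limma), and Kdm2b changed by -0.82 on the log ratio and -0.78 in Cy3. The Polycomb list moved in both directions, with 4 of 30 lower and 4 higher on both scales. In Cy3 alone 9 of the 30 were called lower and 4 higher, beside 5.05% and 3.05% of all symbols. Eed, the core PRC2 subunit that reads H3K27 trimethylation, went from 2.36 and 2.59 to 1.28 and 1.54 (limma adjusted p = 0.000671), Suz12, another core subunit, changed by -0.84 on the log ratio and -0.65 in Cy3, and Phc1 of PRC1 by -0.85 on the log ratio and -1.89 in Cy3, which was not called without 0 hr replicate 2 (log ratio -0.71). After the correction of Cy5 bleaching Kdm2b (-0.56) and Suz12 (-0.57) were not called. The PRC1 genes Phc2 (0.75 on the log ratio and 0.70 in Cy3), Cbx8 (0.84 on the log ratio and 0.72 in Cy3), Yaf2 (0.93 on the log ratio and 0.98 in Cy3) and Pcgf5 (0.98 on the log ratio and 0.69 in Cy3) rose.

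Of 18 measured trophectoderm transcription factors, 6 were called higher and 1 lower on the log ratio, beside 9.2% and 4.16% of all symbols. In Cy3 alone 9 were called higher and none lower, beside 3.05% and 5.05%. The median change was 0.22 on the log ratio and 0.70 in Cy3. Esx1, an X-linked homeobox gene of the placenta, had the largest called change of the list on the log ratio (in Cy3 Hand1 had a larger one), with log ratios of 2.16 and 2.13 at 0 hr and 4.20 and 4.25 at 24 hr (a 4.23-fold rise, limma adjusted p = 1.5e-05) and Cy3 values of 8.12 and 7.96 against 10.19 and 10.21. Gata2 went from -0.41 and -0.40 to 0.58 and 0.87 (limma adjusted p = 0.000765), Arid3a from 0.73 and 0.78 to 2.14 and 2.54 (limma adjusted p = 0.00233), and Irx3 from -0.22 and 0.01 to 1.04 and 0.89 (limma adjusted p = 0.000802). Arid3a went from 9.10 and 9.20 to 10.02 and 9.99 in Cy3 and from 8.33 and 8.39 to 7.80 and 7.53 in Cy5. Gata3, which drives trophoblast fate, went from -0.16 and -0.25 to 0.32 and 0.83, a change of 0.78 that was not called without 0 hr replicate 1, 0 hr replicate 2 or 24 hr replicate 2 (adjusted p of 0.0912, 0.121 and 0.138 by limma). Nor was it called after the correction of Cy5 bleaching (0.45). In Cy3 it read 9.0 and 9.01 against 9.87 and 9.79 (limma adjusted p = 0.000179).

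The array probe for Cdx2, the factor most associated with trophectoderm, is described in the study as not responsive, so its values are no measure of the gene. It read -0.33 and -0.36 at 0 hr and -0.16 and -0.30 at 24 hr on the log ratio and 9.27 and 9.49 against 9.68 and 9.76 in Cy3. Its change of 0.12 (SE 0.11) had a limma adjusted p of 0.454, and that in Cy3, 0.34, had one of 0.0705. Tfap2c was not called on the log ratio (0.19) and rose in Cy3 (0.93).

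The epithelial and trophoblast list gave 13 calls higher and 1 lower among 30 measured genes on the log ratio, beside 9.2% and 4.16% of all symbols, and 8 and 1 on both scales, beside 1.77% and 2.56%. Krt18, a keratin of simple epithelia, went from -1.24 and -1.51 to -0.36 and -0.10 (limma adjusted p = 0.00292) and from 13.47 and 13.50 to 14.24 and 14.24 in Cy3. Its partner Krt8 changed by 1.07 on the log ratio and 0.60 in Cy3 and was not called without 0 hr replicate 2 (limma adjusted p = 0.0597). Krt19 had one of the larger log ratio changes, 2.02, with 0.57 in Cy3 and -1.45 in Cy5, and it was called only with both 0 hr arrays and 24 hr replicate 2 (limma adjusted p of 0.0839, 0.113 and 0.115 without them in turn). The fatty acid binding protein Fabp3 (0.97 on the log ratio and 1.45 in Cy3) and the desmosomal cadherin Dsc2 (0.85 on the log ratio and 0.77 in Cy3) rose too, as did the tight junction gene Cldn4 (0.91 on the log ratio and 1.22 in Cy3), not called without 0 hr replicate 2 (limma adjusted p = 0.0655). After the correction of Cy5 bleaching Krt8 (0.48) and Cldn4 (0.53) were not called. Aqp3, a water and glycerol channel, fell (-0.87 on the log ratio and -1.09 in Cy3), a call lost without 0 hr replicate 1 or 0 hr replicate 2 (adjusted p of 0.0562 and 0.0736 by limma).

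Primitive endoderm genes split. Of 19 measured, 3 fell and 4 rose on both scales, and the median change was -0.08 on the log ratio and 0.16 in Cy3. Gata6, the factor that specifies this lineage, went from -1.82 and -1.80 to -0.76 and -0.38 (limma adjusted p = 0.00327), and the basement membrane genes Col4a1 (1.04 on the log ratio and 1.34 in Cy3) and Lamb1 (1.06 on the log ratio and 1.14 in Cy3) rose. Lama1 (-0.69 on the log ratio and -1.03 in Cy3), Lamc1 (-0.66 on the log ratio and -0.85 in Cy3) and Apoe (-0.94 on the log ratio and -0.68 in Cy3) fell, Lama1 under 1.5-fold without 0 hr replicate 2 (log ratio -0.57) and Lamc1 not called after the correction of Cy5 bleaching (-0.56). Of 14 neural genes 3 fell on both scales and none rose, among them Stmn2 (-1.39 on the log ratio and -1.43 in Cy3), which regulates microtubules. Otx2, an epiblast and forebrain factor, changed by -1.0 on the log ratio and -1.23 in Cy3. It was the only 1 of 15 measured formative genes called on the log ratio. In Cy3 that list read lower for 6 genes and higher for 9, with a median change of 0.10.

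**Figure D4:**
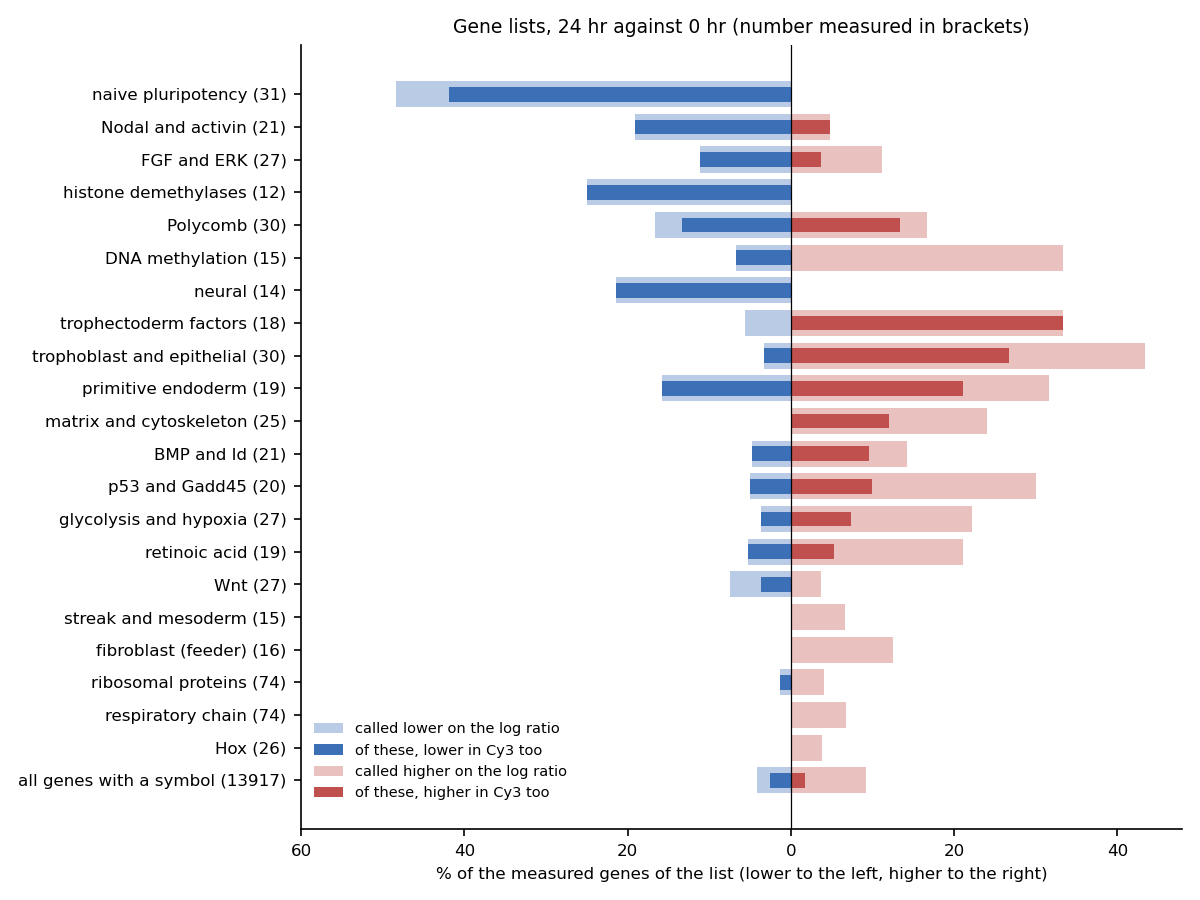
Share of the measured genes of 21 gene lists, and of all genes with a symbol, that were called lower (left of 0) or higher (right of 0) at 24 hr (x axis, %), with pale bars for calls on the log ratio and dark bars for those also changed in Cy3. Naive pluripotency reaches 15 of 31 lower, and many pale bars on the right have a short dark bar or none.

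The 12 largest rises of the log ratio that were also seen in Cy3 were led by Arrb1, Id2 and Ddit4. Arrb1, beta-arrestin 1, went from -1.36 and -1.41 to 1.01 and 1.59 on the log ratio (limma adjusted p = 0.000215) and from 8.29 and 8.35 to 9.66 and 9.64 in Cy3, so a part of its 2.69 on the log2 scale lay in a Cy5 change of -1.34. Its second probe rose by 0.78 on the log ratio and 0.71 in Cy3. Ddit4, an inhibitor of mTORC1 induced by stress, changed by 2.46 on the log ratio and 1.2 in Cy3, the kinase Camkk2 by 2.38 on the log ratio and 1.46 in Cy3, the Golgi mannosidase Man2a1 by 2.29 on the log ratio and 1.17 in Cy3, and the chloride transporter Clcn5 by 2.24 on the log ratio and 1.36 in Cy3. The second probe of Man2a1 read 0.10 on the log ratio. Cgrrf1 (2.36 on the log ratio and 0.70 in Cy3), Mtpn (2.03 on the log ratio and 0.70 in Cy3), Klhdc2 (2.10 on the log ratio and 0.98 in Cy3), Glyr1 (2.06 on the log ratio and 0.97 in Cy3) and the histone methyltransferase Setd7 (2.01 on the log ratio and 1.03 in Cy3) completed them beside Id2 and Esx1. After the correction of Cy5 bleaching Ddit4, Cgrrf1, Mtpn, Klhdc2 and Glyr1 were no longer called (0.92, 0.81, 0.51, 1.05 and 1.10 on the log ratio). Klhdc2 was not called without 0 hr replicate 1 or 0 hr replicate 2 (adjusted p of 0.0565 and 0.0601 by limma) and Glyr1 not without 0 hr replicate 2 (limma adjusted p = 0.0597), nor was Glyr1 called in Cy3 alone (limma adjusted p = 0.156). Setd7 was not called without 0 hr replicate 1, 0 hr replicate 2 or 24 hr replicate 2 (adjusted p of 0.0664, 0.0792 and 0.0693 by limma), and its second probe read -0.20.

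Ordered by Cy3 instead, among genes changed on both scales whose Cy5 moved by less than 1.5-fold, an order chosen after the values were seen, the largest rise after Esx1 was Farp1, a cytoskeletal exchange factor, from 9.45 and 9.41 to 11.22 and 11.27 in Cy3. It was followed by the semaphorin Sema4c (1.22 on the log ratio and 1.79 in Cy3), the calcium channel subunit-like Tmem37 (1.48 on the log ratio and 1.78 in Cy3), the ATP-gated channel P2rx4 (1.67 on the log ratio and 1.72 in Cy3), Prtg (1.31 on the log ratio and 1.71 in Cy3), the small GTPase Rab15 (1.02 on the log ratio and 1.64 in Cy3) and the LIM protein Fhl1 (1.68 on the log ratio and 1.61 in Cy3). Cebpb, a bZIP factor, rose by 3.04-fold in Cy3 and 2.73-fold on the log ratio, and Gadd45g, which slows the cell cycle under stress, by 2.97-fold and 2.55-fold. Katnal2 (1.57 on the log ratio and 1.58 in Cy3) and Pdzrn3 (1.49 on the log ratio and 1.54 in Cy3) closed this set of 12. All 12 were also called without each of the 4 arrays in turn and after the correction of Cy5 bleaching. These 12 were chosen for a Cy5 signal that moved little, so that correction is no separate check of them. A second probe of Prtg read -0.02 on the log ratio and 0.29 in Cy3.

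Among other groups, the p53 and Gadd45 list had 6 of 20 genes called higher and 1 lower on the log ratio, with 2 of the rises, Gadd45g and Cdkn1a (1.57 on the log ratio and 0.62 in Cy3), on both scales, the latter not called after the correction of Cy5 bleaching (0.54). Gadd45b went up by 1.71 on the log ratio with 0.09 in Cy3, and it was not called without 0 hr replicate 1 or 0 hr replicate 2 (adjusted p of 0.0509 and 0.0539 by limma). Of 27 genes of glycolysis and hypoxia 6 were called higher and 1 lower, and 2 and 1 on both scales. Hk2, the inducible hexokinase, fell from 1.24 and 1.44 to 0.12 and 0.12 (limma adjusted p = 0.000177), and the glucose transporter gene Slc2a3 rose (1.04 on the log ratio and 1.49 in Cy3), a call lost without 0 hr replicate 1 (limma adjusted p = 0.0664). Eno1, called higher at 1.33 on the log ratio, read 0.06 in Cy3 and was not called without 0 hr replicate 1, 0 hr replicate 2 or 24 hr replicate 2 (limma adjusted p of 0.0682, 0.073 and 0.0669). Of 19 retinoic acid genes 4 were called higher and 1 lower. Among the rises, Rxra (1.84 on the log ratio and 0.54 in Cy3) and Meis1 (1.84 on the log ratio and 0.53 in Cy3) were called on the log ratio alone. The imprinted RNA H19 rose (1.56 on the log ratio and 1.39 in Cy3), as did the immediate early gene Jun (1.39 on the log ratio and 1.23 in Cy3) and the angiomotin gene Amot of the Hippo pathway (1.27 on the log ratio and 0.71 in Cy3).

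Lists of housekeeping function and of other germ layers are to be read against the shares of all symbols, 4.16% lower and 9.2% higher on the log ratio. Of 74 ribosomal protein genes 1 was called lower and 3 higher on the log ratio, of 74 respiratory chain genes none and 5, of 71 mitochondrial ribosome genes 1 and 8, and of 26 Hox genes none and 1. Of 15 genes of the primitive streak and mesoderm 1 was called higher, and none of the 10 heat shock genes was called. None of these rises was seen on both scales.

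Markers of the cell types a culture could hold were read in the same way. Of the 10 ES cell markers 3 fell on both scales and none rose. Pou5f1 was not among the 3, since its brighter probe, on the early design alone, stood for it. The median change of the 10 was -0.44 on the log ratio and -0.73 in Cy3. Their summed Cy3 signal was 203254 to 204092 at 0 hr and 107525 to 108652 at 24 hr. That sum weighs bright genes most, among them Zfp42 and Tdgf1, whose Cy5 signal moved with Cy3. Of 12 measured trophoblast markers 5 rose on both scales and none fell, with summed Cy3 of 23848 to 24846 at 0 hr and 40276 to 40323 at 24 hr. Of 16 measured feeder fibroblast markers none changed on both scales. Col1a2 (1.16 on the log ratio and 0.06 in Cy3) and Fbln2 (0.88 on the log ratio and 0.19 in Cy3) were called on the log ratio, and neither was without 0 hr replicate 1, 0 hr replicate 2 or 24 hr replicate 2 (limma adjusted p of 0.0563, 0.0881 and 0.0738 for Col1a2, and of 0.0935, 0.19 and 0.174 for Fbln2). The summed Cy3 of the fibroblast markers was 5123 to 5792 at 0 hr and 5767 to 6541 at 24 hr. Of 7 measured primitive endoderm markers 2 rose and 1 fell on both scales. Their summed Cy3 was 6526 to 7030 at 0 hr and 4733 to 4972 at 24 hr. Of 5 neural markers 1 fell on both scales and none rose. No marker was under the negative controls in all 4 arrays. In such bulk RNA, fewer cells of a type and less RNA per cell cannot be told apart.

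The early design measured 2642 symbols that have no probe on the late design. Of these 152 were called lower (5.75%) and 178 higher (6.74%), 12.5% together, and 92 fell (3.48%) and 29 rose (1.1%) on both scales, 4.58% together. Of those 2642, 672 owe their name to tables of genes the study selected in part on these arrays, and they made up 84 of the 121 genes changed on both scales, so the shares are not those of an unselected set. Apart from LOC669384 and BC032203 the largest falls were the zinc finger gene Zfp459, from 2.43 and 2.33 to 0.72 and 0.39 on the log ratio (limma adjusted p = 0.000157), AY036118, from 2.28 and 2.44 to 0.58 and 0.57 (limma adjusted p = 2.13e-05), and Adam23, a membrane protein of the ADAM family, from 2.32 and 2.35 to 0.60 and 0.51 (limma adjusted p = 1.82e-05). Apart from Glyr1 the largest rises were Katnal2, a katanin-like microtubule protein, from -0.63 and -0.75 to 1.0 and 0.76 (limma adjusted p = 0.000171), Rgcc, a cell cycle regulator, from -1.0 and -1.02 to 0.36 and 0.74 (limma adjusted p = 0.000107), Zfp768 (1.54 on the log ratio and 0.93 in Cy3) and the non-muscle myosin gene Myh9 (1.42 on the log ratio and 0.65 in Cy3). Zfp768 was not called without 0 hr replicate 2 (limma adjusted p = 0.051), nor Myh9 after the correction of Cy5 bleaching (0.12). A further 25091 probes carried no symbol here. Of them 6.32% were called on the log ratio, and 100 fell (0.399%) and 145 rose (0.578%) on both scales, 0.976% together.

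Calls that the cells' own channel did not share were of 2 kinds. The largest rises of the log ratio with a Cy3 change under 1.2-fold or of the other sign were Rnf181 (log ratio 0.36 and 0.34 at 0 hr and 1.90 and 2.54 at 24 hr, Cy3 11.50 and 11.44 against 11.62 and 11.54), Pmpca, Relt, Eif4h and Ndufb11, with log ratio changes of 1.85, 1.85, 1.82 and 1.80 for the last 4. Their Cy5 signal differed by -1.70, -1.55, -1.90, -1.76 and -1.77. Rnf181 and Ndufb11 were not called without 0 hr replicate 1, 0 hr replicate 2 or 24 hr replicate 2 (limma adjusted p of 0.0753, 0.0793 and 0.0773, and of 0.0566, 0.0722 and 0.0589), and Relt not without 0 hr replicate 1 (limma adjusted p = 0.0592). The largest falls of this kind were smaller, Rab4a (-0.91), Schip1 (-0.87), Sapcd1 (-0.81), Hbb-bh1 (-0.79) and Stat4 (-0.76), with Cy5 changes from 0.63 to 0.75. In all, 429 of the 2698 rises had a Cy3 change of the other sign and 958 a rise in Cy3 under 1.2-fold.

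The times between 0 and 24 hr share the same 0 hr arrays, so their values are given only side by side. Tcl1 read 0.30, 0.14 and -0.46 from 0 hr on the log ratio at 3, 6 and 12 hr, and Slc7a3 read -0.12, -0.57 and -2.30. Foxd3 read -0.65, -1.38 and -1.83, and Zfp296 -0.16, -1.0 and -1.71. Esx1 read -0.07, 0.10 and 0.74, so most of its rise came after 12 hr. Gata2 read 0.25, 0.33 and 0.73. Id2 read 0.52, 1.41 and 1.16 on the log ratio but 0.07, 0.06 and 0.42 in Cy3.

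The same 24 hr against 0 hr contrast existed in a separate experiment on ZHBTc4 cells, which the study had run before and which supplied its later time points, on the late design with 3 arrays a time, and 17777 genes had the same probe sequence on both. The designs were normalized separately, so values are set side by side with no test between them. On the late arrays 8.01% of these genes were called. Of the 270 early falls on both scales that could be looked up, 243 were also lower on the late arrays and 136 were called lower there (50.4%), against 3.83% of all 17777. Of the 258 early rises on both scales 201 were higher and 119 called higher (46.1%), against 4.19%. Of the 1222 other early rises on the log ratio, 622 were higher on the late arrays and 89 called higher (7.28%), and their median late change was 0.00 after a median of 0.87 on the early arrays. The 169 other early falls gave 118 lower and 41 called lower (24.3%).

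Late differences of named falls were -3.33 for Tcl1, -3.20 for Jam2, -3.41 for Vegfc, -2.27 for Nr0b1, -2.10 for Tet2 and -2.86 for Lefty1. Those of named rises were 1.78 for Esx1, 2.71 for Id2, 1.57 for Gata2, 1.98 for Gata3 and 1.86 for Krt18. Ddit4 read -0.44, Cgrrf1 -0.13 and Setd7 -0.07 there. Of the genes changed on both scales early, 10 were called the other way late. Those lower early and higher late were Spink1, Ankrd33b, Fgfbp1, Selenoh and Aqp3, with late changes from 0.59 to 1.98. Those higher early and lower late were Acot1, Mlycd, Cebpb, Cdkn1a and 1 unnamed probe, with late changes from -0.93 to -0.72. These genes were chosen after their values were seen. Their set required separate 0 and 24 hr arrays, so that separation on the early arrays is no further result. Cebpb, for example, read -3.06 and -3.07 on the 0 hr and -1.73 and -1.51 on the 24 hr early arrays.

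**Figure D5:**
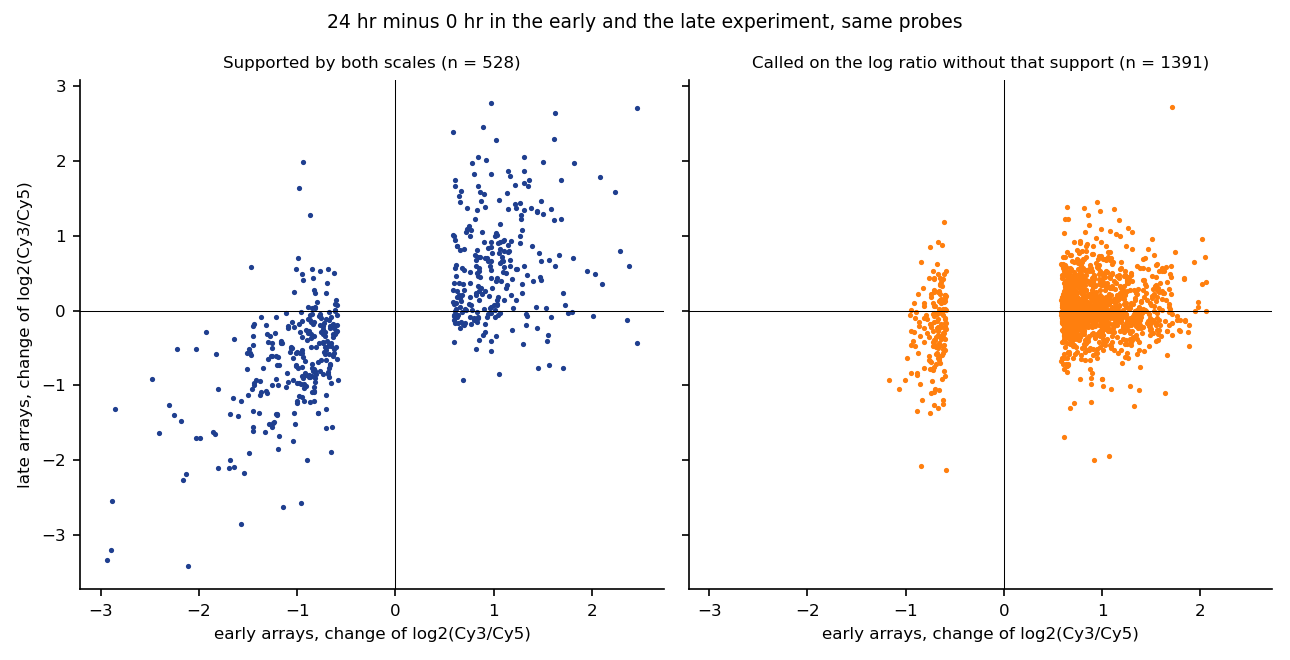
Change from 0 to 24 hr in log2(Cy3/Cy5) on the late arrays (y axis) against that on the early arrays (x axis) for genes with the same probe on both, for 528 genes changed on both scales early (left) and 1391 called on the log ratio without that support (right). Points on the left lie mainly in the lower left and upper right, while the rises on the right scatter about 0 on the late arrays.

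POU factors read the octamer ATGCAAAT, searched here on both strands in RefSeq promoter windows of 300 bases (250 before and 50 after the gene start, GRCm38.p6). It occurred in 532 of 27025 genes with such a window (1.97%) and in 220 of 10782 genes of the array (2.04%). Of the genes that fell on both scales 10 of 250 held it (4%), and of those that rose 8 of 198 (4.04%), so the shares of falls and rises were alike. Among the Pou5f1 gene and the 24 genes of largest change, 19 of which had a window, only Zfp296 held a match. Its window, shown because that gene also had one of the largest falls, lies at chr7:19577037-19577336 on the plus strand, with the match in capitals as its reverse complement, 111 bases before the gene start.
Zfp296 promoter: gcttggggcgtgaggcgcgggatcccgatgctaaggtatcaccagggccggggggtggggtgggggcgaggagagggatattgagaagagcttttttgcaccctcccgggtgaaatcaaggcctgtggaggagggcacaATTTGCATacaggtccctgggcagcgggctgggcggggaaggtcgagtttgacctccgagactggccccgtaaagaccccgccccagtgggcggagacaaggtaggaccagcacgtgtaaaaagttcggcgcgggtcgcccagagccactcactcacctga
A match of letters is a description of the sequence and says nothing of binding in these cells.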

How the data were processed

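The authors deposited Agilent Feature Extraction output per array, from which the Cy3 and Cy5 mean and background intensity of each spot were used, and a value table whose deposited values behaved as the log10 of normalized Cy3. Probes were named through accessions of identical probes in RefSeq or through tables of the study. Spots called outliers were left out, background was corrected by normexp (offset 50), dyes were balanced by loess, and replicate spots were averaged. Differences from 0 hr were fitted in limma 3.58.1 (R 4.3.3) over 5 times and 10 arrays, with Benjamini-Hochberg adjustment over all gene probes. Cy3 alone and Cy5 alone were quantile normalized and fitted in the same way. The code was tested on simulated data. Named genes were both Pou5f1 probes, the 12 largest falls and rises seen on both scales, the 5 largest among symbols absent from the late design, called members of the gene lists, and the 5 largest calls in each direction that Cy3 alone did not share; a few of these are not reported here. Members and lists were chosen with earlier results of these data known. Replicate numbers did not pair the samples. Alternatives covered channel, background, normalization, filters, error model, block and single arrays.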

Additional observations from a re-analysis of the deposited data

How the results depend on the processing

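The 3446 genes called on the log ratio (748 lower, 2698 higher) became 1993 with Cy3 alone quantile normalized, 2046 with Cy3 alone scaled to each array's median, and 10 with Cy5 alone. The count was 873 after the correction of Cy5 bleaching (468 lower, 405 higher) and 1573 of 24238 genes with the values the authors normalized (1302 lower, 271 higher). It was 1165 without background correction (269 lower, 896 higher). A plain t test of limma's difference, with an error variance after the study's methods, called 0, and 7494 had an unadjusted p under 0.05. That test used 1 contrast of the early arrays alone. Its 0 is therefore no count by the study's own procedure, which merged both experiments. With single arrays left out the count ran from 1454 to 4608. The 1993 calls in Cy3 alone became 737 with only the 4 arrays at 0 and 24 hr and 1962 to 2944 with 1 array left out. With Feature Extraction's processed signals 1457 were lower and 3057 higher. The causes were not tested.

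With replicate number as a block 3735 genes were called (752 lower, 2983 higher) and 1946 in Cy3 alone. Deviations of same-numbered arrays correlated by -0.13 between 0 and 24 hr and by -0.14 to 0.34 over the 10 pairs of times, so the numbers were not taken to pair the samples.

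Signs reversed for a few named genes. In Cy3 alone, quantile normalized, Relt read -0.11, Bmp4 -0.80 and Dnmt3l -1.66, and with each array scaled to its median -0.11, -0.82 and -1.64. After the correction of Cy5 bleaching Bmp4 and Dnmt3l both read -0.65. In the values the authors normalized Rnf181 read -0.11, Bmp4 -0.82, Dnmt3l -0.46 and Gadd45b -0.12. Zfp42 read 0.093 with the processed signals, and Dnmt3l read -0.30 without background correction. With 1 array left out, Nanog ran from -0.13 to 0.24 and Zfp42 from -0.21 to 0.066.

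A block for scan date was not run, since the early arrays share 1 date. The probe with the largest F statistic in place of the brightest was tried for counts only, and Cy5 alone gives no value for the cells. The number of arrays, 2 a time, limits the precision of each value.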
